A study of Mus musculus with 8 samples.

Results

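The metalloproteinase inhibitors described here are the 4 tissue inhibitors of metalloproteinases, Timp1, Timp2, Timp3 and Timp4, and the membrane inhibitor Reck. They were taken by gene symbol from a gene-level RNA-seq table, and make up 5 of its 22274 genes. The table holds 8 libraries of primary mouse cardiac fibroblasts, 4 labelled GFP and 4 labelled OEIRF7. Per the study's methods, GFP cells received an empty control virus (Ad-EV), OEIRF7 cells received a virus for overexpression of IRF7, an interferon regulatory transcription factor, and both groups were then given 5 ng/ml TGF-β for 24 h, so no library here lacks virus or TGF-β. The paper describes an adenovirus carrying human IRF7, whereas the deposited design text names an adeno-associated virus. The paper speaks of biological replicates, but the labels do not say which culture or animal each library came from, so p-values measure only the spread between these libraries, which may be technical.

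Counted reads per library ranged from 24454801 to 28658826, and 13533 genes passed the filter on low counts. The overexpressed gene gave no clear check of the labels. Mouse Irf7 stood at 92.0 to 147 CPM (counts scaled to library size) in the 4 GFP libraries. In the 4 libraries labelled OEIRF7 it stood at 14.5 to 16.4 CPM. These counts do not see a human transgene. The adeno-associated virus among the paper's reagents carries mouse Irf7, whose reads could be counted. With that virus, the lower mouse Irf7 would run against the labels. Which virus was used cannot be told from these counts. Directions below are therefore those of the libraries labelled OEIRF7. Fibroblast markers were abundant, with a summed level of 14540 to 15003 CPM in GFP and 13422 to 14581 CPM in OEIRF7, while 8 of 9 cardiomyocyte markers were below the filter. In bulk RNA, fewer cells of a type and less RNA per cell cannot be told apart.

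TIMPs are small secreted proteins that bind the active site of matrix metalloproteinases (MMPs) and thereby limit the breakdown of collagen and other matrix proteins. TIMP1 also binds the MMP9 precursor and the surface protein CD63, TIMP2 forms a complex with MMP14 that activates the MMP2 precursor, and TIMP3 is held in the matrix and also inhibits ADAM17, ADAMTS4 and ADAMTS5. TIMP4 is the member best known from heart muscle. RECK is anchored in the cell membrane by a glycolipid, restrains MMP2, MMP9, MMP14 and ADAM10, and serves with ADGRA2 as a co-receptor for WNT7. In cardiac fibroblasts the balance of these inhibitors and the MMPs is one determinant of scar matrix turnover.

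The 2 members that changed in opposite directions by the largest amounts, Reck and Timp1, are shown here with the 250 bases upstream of their RefSeq start (GRCm38.p6, 5′ to 3′). They were chosen since their changes were the largest among the tested members, not among all genes. Capitals mark matches, on either strand, to GGGCGG, the GC box bound by SP1-type factors, or to CATTCC, bound by TEAD factors.
Reck, chr4:43875280-43875529, plus strand: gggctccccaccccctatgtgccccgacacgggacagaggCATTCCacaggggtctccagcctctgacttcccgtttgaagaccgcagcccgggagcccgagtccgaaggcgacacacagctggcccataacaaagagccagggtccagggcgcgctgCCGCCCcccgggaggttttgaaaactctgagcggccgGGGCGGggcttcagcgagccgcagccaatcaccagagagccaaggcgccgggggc
Timp1, chrX:20869916-20870165, plus strand: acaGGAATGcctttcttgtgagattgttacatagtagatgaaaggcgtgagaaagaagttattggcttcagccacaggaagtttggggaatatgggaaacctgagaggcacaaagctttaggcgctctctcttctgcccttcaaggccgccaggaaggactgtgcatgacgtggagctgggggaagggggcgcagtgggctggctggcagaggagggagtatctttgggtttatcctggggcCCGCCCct

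The Reck upstream stretch was 68.4% G or C and held GC boxes beginning 92 and 55 bases before the start, with another 4 bases before it that runs across the start and is therefore not in capitals. That of Timp1 was 54.4% G or C and held 1 GC box, 8 bases before the start. GGGCGG occurs in 35.7% and CATTCC in 14.7% of the 32851 promoter windows in the same table, each of 250 bases before to 50 after a start, so neither letter string is particular to these genes. Neither gene's window held TGANTCA, the AP-1 site, found in 7.81% of windows, GAAANNGAA, a core of interferon-regulatory-factor elements, found in 8.56%, or CAGACA, a SMAD-type site, found in 21.0%. A variant AP-1 string, TGAGTAA, was searched only after the Timp1 sequence had been read, and begins at base 27, counting the start as base 1. TGAGTAA occurs in 2.68% of windows. The 29 bases around it are shown as the only match to TGANTCA or TGAGTAA in the 5 windows, and other AP-1-like strings were not searched.
Timp1, chrX:20870181-20870209, plus strand: cggtgggtggaTGAGTAAtgcgtccagga

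Of the other members, Timp2 and Timp3 held GC boxes and Timp4 a CAGACA match, and none held TGANTCA or GAAANNGAA in these windows.

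Among the 4 members that passed the filter, Timp1 rose, Timp3 and Reck fell, and Timp2 did not pass the test. In edgeR's quasi-likelihood test with Benjamini-Hochberg adjustment over all 13533 genes, 29.0% of tested genes were higher and 29.9% lower in OEIRF7, so 1 member higher and 2 lower is close to the background of this comparison. A fall past a log2 fold change of -1 was less common, at 3.89% of tested genes (4.66% were past 1 in the other direction), and Reck was the 1 member past it. No member rose past a log2 fold change of 1. Libraries of the groups did not overlap for 3 of the 4, beside 53.8% of all tested genes. The median log2 fold change of the 4 was -0.18, and that of all tested genes was 0.00.

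**Figure D1:**
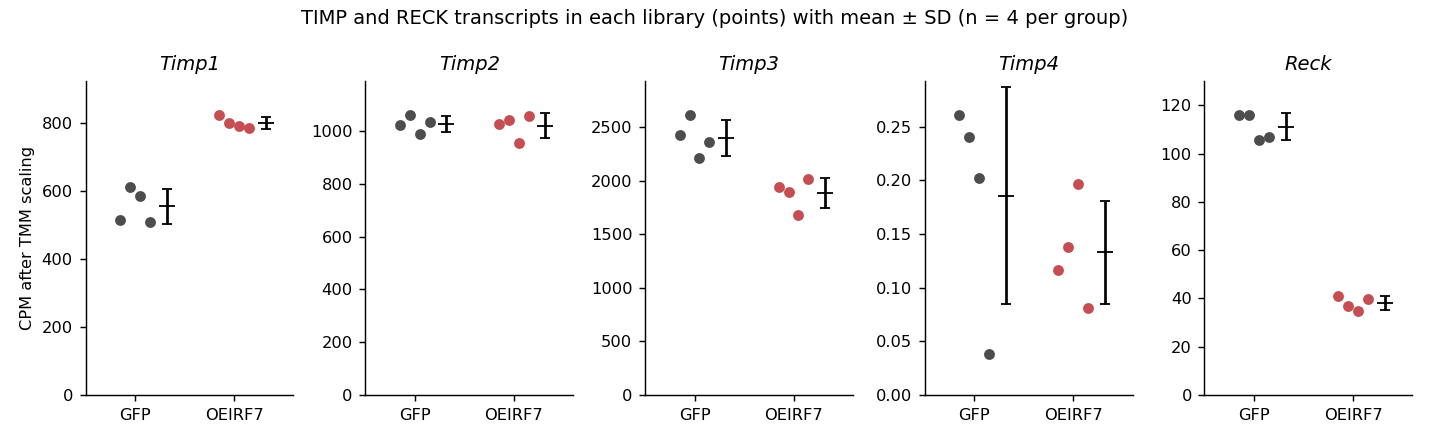
CPM after TMM scaling (y axis, from 0, a scale for each gene) of each library (points, x axis by group), with mean ± SD beside them (n = 4 per group). The 4 OEIRF7 libraries sit above every GFP library for Timp1 and below every GFP library for Timp3 and Reck, overlap them for Timp2, and are near 0 for Timp4 in both groups.

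Reck, on the plus strand of chromosome 4 (GRCm38, 43875530 to 43944806), showed the largest change of the members. It had 116, 116, 106 and 107 CPM in the GFP libraries and 40.8, 37.1, 34.7 and 39.8 CPM in the OEIRF7 libraries. Every OEIRF7 library lay far under the lowest GFP library, and the spread within a group was small beside the gap. The mean fell from 111 ± 5.61 to 38.1 ± 2.77 CPM (SD, n = 4 each), a fold of 2.92, with a log2 fold change of -1.55 (SE 0.053, 95% CI -1.66 to -1.43) and an edgeR adjusted p of 1.6e-11. In the order of log2 fold changes from the lowest, Reck stood at 152 of the 13533 tested genes. The exact two-sided permutation test gave p = 0.029, the smallest that 4 against 4 libraries allow.

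Timp1 lies on the plus strand of chromosome X (GRCm38, 20870166 to 20874735) and belongs to the panel of fibrosis transcripts the study followed by qPCR. Its values were 514, 612, 586 and 509 CPM in GFP and 825, 800, 791 and 785 CPM in OEIRF7. The OEIRF7 libraries were close to each other and all above the GFP libraries. From 555 ± 51.4 to 800 ± 17.8 CPM (SD, n = 4 each), Timp1 rose 1.44-fold, with a log2 fold change of 0.53 (SE 0.051, 95% CI 0.42 to 0.64), an edgeR adjusted p of 5.4e-07 and an exact permutation p of 0.029. By size this is a moderate change here, at place 1556 of 13533 from the highest log2 fold change.

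Timp3, on the plus strand of chromosome 10 (GRCm38, 86300372 to 86349506), had the most counts of the members. It had 2422, 2616, 2212 and 2359 CPM in GFP and 1942, 1893, 1683 and 2016 CPM in OEIRF7. All 4 OEIRF7 libraries were lower, and the highest of them was 2016 CPM beside 2212 CPM in the lowest GFP library. The mean went from 2402 ± 168 to 1884 ± 143 CPM (SD, n = 4 each), a decrease of 21.6% in the fitted level. Its log2 fold change was -0.35 (SE 0.054, 95% CI -0.47 to -0.24), with an edgeR adjusted p of 5.2e-05 and an exact permutation p of 0.029.

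Timp2, on the minus strand of chromosome 11 (GRCm38, 118301069 to 118355740), had 1024, 1063, 989 and 1036 CPM in GFP and 1029, 1043, 956 and 1060 CPM in OEIRF7. The groups overlapped throughout. Its mean was 1028 ± 31.0 in GFP and 1022 ± 45.8 CPM in OEIRF7 (SD, n = 4 each), and the log2 fold change of -0.01 had an adjusted p of 0.85 by edgeR. The 95% interval of the fold was 0.944 to 1.05 in this fit. The sign turned under other settings. On FPKM the log2 fold change was 0.11, above the edgeR 95% interval of -0.084 to 0.066 on the log2 scale. It did not pass the test (limma adjusted p = 0.1).

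Timp4, on the minus strand of chromosome 6 (GRCm38, 115241892 to 115252205), was barely detected. The GFP libraries held 7, 6, 5 and 1 counts and the OEIRF7 libraries 3, 4, 5 and 2 counts. These low counts overlapped and left the gene under the filter, so it was not tested with the others. Summed over libraries, 19 counts in GFP gave 0.183 CPM (no TMM scaling, exact Poisson 95% interval 0.110 to 0.286) and 14 counts in OEIRF7 gave 0.135 CPM (0.0736 to 0.226), where the intervals cover counting error only. A difference was not detectable at this depth.

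The members differed from each other in their response. In each library the log2 ratio of counts of every pair of the 4 tested members was formed, and these ratios were compared between groups by the exact two-sided permutation test, with Benjamini-Hochberg adjustment over the 6 pairs. All 6 pairs separated the groups without overlap, with an exact p = 0.029 and an adjusted exact p = 0.029, the smallest possible. Of all tested genes taken singly, 53.8% did not overlap between the groups, and the share for pairs of other genes was not computed. The 6 pairs are built from 4 genes and are not independent. The log2 ratio of Timp1 to Reck moved most, from 2.32 ± 0.15 to 4.40 ± 0.09 (SD, n = 4 each), a difference of 2.08. Timp2 to Reck moved by 1.54, Timp3 to Reck by 1.19 and Timp1 to Timp3 by 0.88. The smaller shifts were 0.54 for Timp1 to Timp2 and 0.34 for Timp2 to Timp3.

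**Figure D2:**
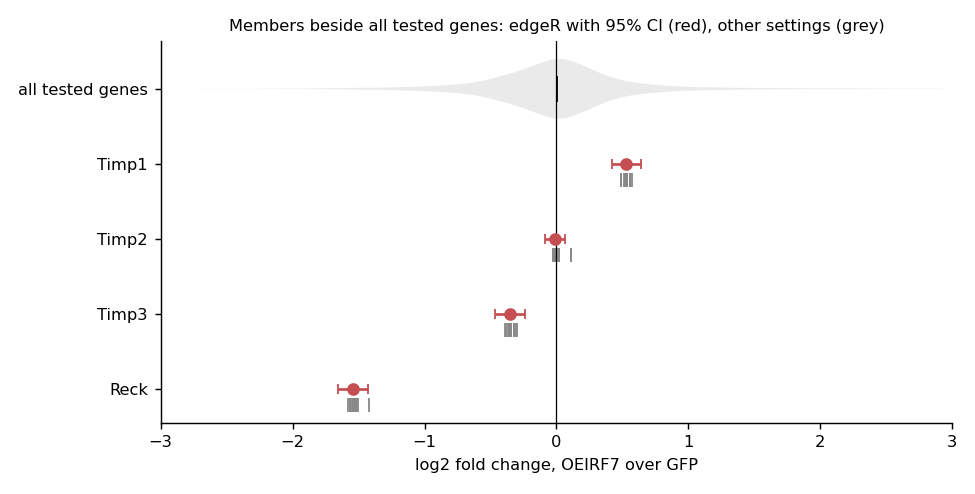
Log2 fold change of OEIRF7 over GFP (x axis) for the 4 tested members, with the edgeR estimate and 95% CI in red, the values under other settings as grey ticks, and the distribution of all 13533 tested genes on top, of which 68 lie outside the plotted range of -3 to 3. Timp1 at 0.53 and Timp3 at -0.35 lie on the flanks of the distribution, Timp2 at its centre and Reck at -1.55 in its lower tail.

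Levels of different genes can be set side by side only per length, for which the deposited FPKM (fragment counts scaled by transcript length and library depth) were used. In GFP, Timp1 had the highest FPKM at 641 ± 60.1, then Timp3 at 504 ± 35.6, Timp2 at 366 ± 28.4, Reck at 24.8 ± 1.25 and Timp4 at 0.01 to 0.09 (SD, n = 4), and no neighbours in this order overlapped. In OEIRF7 the FPKM were 941 ± 24.98 for Timp1, 403 ± 31.6 for Timp3, 395 ± 17.2 for Timp2, 8.67 ± 0.663 for Reck and 0.01 to 0.04 for Timp4. Timp3 (358 to 431) and Timp2 (370 to 410) then overlapped. The 3 main TIMPs were among the most abundant transcripts of these cells: by mean FPKM, Timp1 held rank 63 of all genes in GFP and 37 in OEIRF7, Timp3 91 and 125, and Timp2 139 and 129. Reck went from rank 3084 to 6601.

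The make-up of the inhibitor transcripts shifted towards Timp1. Of the summed FPKM of the 5 members, Timp1 held 41.7 ± 2.33% in GFP and 53.9 ± 1.33% in OEIRF7, Timp3 32.8 ± 1.48% and 23.1 ± 1.18%, Timp2 23.8 ± 0.850% and 22.6 ± 0.188%, and Reck 1.62 ± 0.0932% and 0.496 ± 0.0221% (SD, n = 4 each). There were 1.27 Timp1 per Timp3 transcripts by FPKM in GFP and 2.34 in OEIRF7, and 25.9 and 109 Timp1 per Reck. The summed FPKM of the 4 TIMPs was 1511 ± 103 in GFP and 1739 ± 63.3 in OEIRF7, and the groups overlapped, since the GFP libraries reached 1663 and the lowest OEIRF7 library stood at 1652. Summed as CPM, which gives the long Timp3 transcript more weight, the 5 members went the other way. They had 3892 to 4407 CPM in GFP and 3465 to 3900 CPM in OEIRF7, so the groups overlapped here too. The direction of the total thus differed between these scalings, with Reck only in the CPM sum. These sums and shares are described without a test.

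Set beside the MMPs, the TIMP total was smaller in proportion in OEIRF7. The summed FPKM of the 23 MMP genes was 504 ± 1.75 in GFP and 757 ± 12.9 in OEIRF7, made up of secreted MMPs at 307 ± 2.39 and 542 ± 21.0 and of membrane-type MMPs at 197 ± 2.42 and 214 ± 8.54. The ratio of TIMP to MMP transcripts was 2.85 to 3.29 in the GFP libraries and 2.13 to 2.38 in the OEIRF7 libraries, so the groups did not overlap. Its means were 2.99 ± 0.201 and 2.30 ± 0.114 (SD, n = 4 each).

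**Figure D3:**
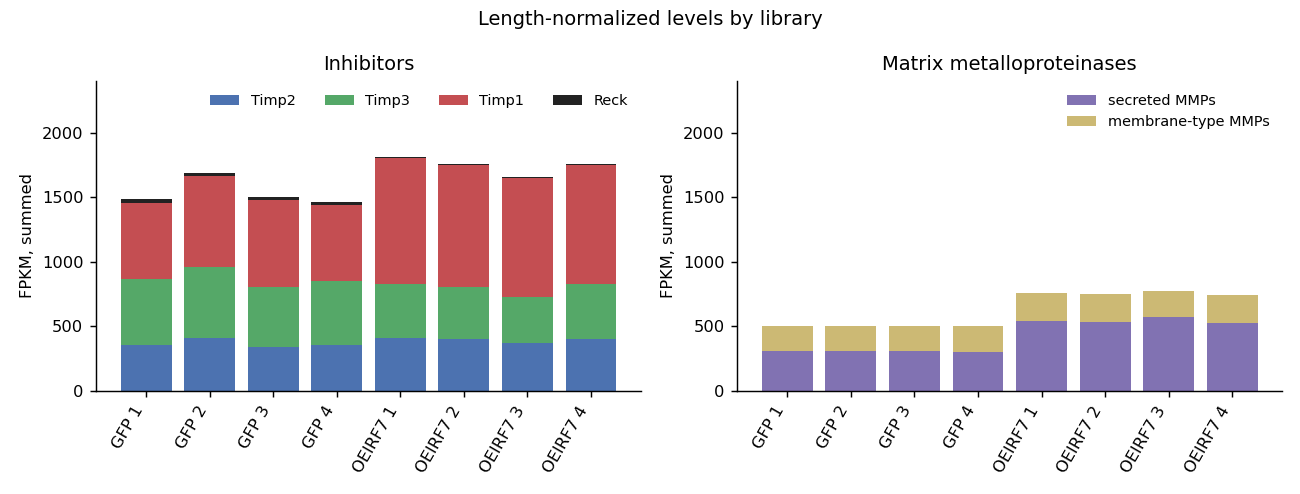
Summed FPKM (y axis, from 0) of the inhibitors (left, stacked by gene) and of the MMPs (right, stacked by class) in each library (x axis). Timp1 takes a larger part of the inhibitor bars in the 4 OEIRF7 libraries and Reck a smaller one, while the MMP bars go from about 504 in GFP to about 757 in OEIRF7.

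Among the enzymes that TIMPs inhibit, more secreted MMPs rose than fell. Of 17 genes, 13 were tested, of which 7 rose, 3 fell and 3 did not pass, with a median log2 fold change of 0.93. Mmp9 is among the 7 and passed the filter only through the OEIRF7 libraries, where it was high. Its place in the count and median was thus tied to a rise, and the median was not computed without it. Of all tested genes, 29.0% were higher and 29.9% lower, and the counts of the lists below are to be read beside these shares. Mmp9, a gelatinase restrained by both TIMP1 and RECK, had a log2 fold change of 5.88 but a very low level in GFP, with 0.185 ± 0.136 CPM there and 11.2 ± 2.19 CPM in OEIRF7. The size of this change rests on few GFP counts: it was 6.51 without GFP replicate 4, which held 10 of the Mmp9 counts where the other GFP libraries held 2 to 4, and 2.10 and 4.55 on log2(FPKM + 1) and log2(FPKM + 0.1). The collagenase Mmp13 rose by 5.11 (1.74 ± 0.261 to 60.1 ± 15.5 CPM, and 3.82 on log2(FPKM + 1)), the stromelysin Mmp10 by 2.90 and the macrophage elastase Mmp12 by 1.82. Mmp3, named after its values were seen, made the largest part of the rise in the MMP sum, with 137 FPKM in GFP and 287 in OEIRF7. Mmp2, the substrate of the TIMP2 and MMP14 complex, had 366 ± 8.25 and 343 ± 11.4 CPM and a log2 fold change of -0.10 (edgeR adjusted p = 0.022), a call lost with library size scaling alone (adjusted p = 0.095), without OEIRF7 replicate 3 (0.059) and on FPKM (0.091 and 0.093). Mmp23, which the list places among the secreted MMPs, fell by 1.71 and Mmp11 by 0.66 on the log2 scale. Membrane anchoring was not checked gene by gene, so the split into secreted and membrane-type MMPs is that of the lists.

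Of the 6 membrane-type MMPs, 4 were tested, with 1 higher, 2 lower and 1 not past the test (median log2 fold change -0.69). Mmp14, the enzyme that TIMP2 and RECK both bind, rose from 435 ± 7.43 to 515 ± 18.4 CPM, a log2 fold change of 0.24. Mmp16 fell by 1.26 on the log2 scale and the low Mmp15 by 1.18 (by 0.46 on log2(FPKM + 1)).

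All 12 genes of the ADAM and ADAMTS list were tested, and 5 rose, 6 fell and 1 did not pass (median -0.10). The list includes Adam8 (0.48), Adam19 (0.54) and Adam9 (-0.14). Inhibition by TIMPs was not checked gene by gene, so these counts are not counts of TIMP targets. The aggrecanase Adamts5, which TIMP3 inhibits, had 518 ± 28.9 CPM in GFP and 130 ± 21.2 CPM in OEIRF7, a fall by 1.99 in log2 terms, whereas Adamts4, the other main aggrecanase, rose by 0.58 from only 6.69 ± 0.616 to 10.02 ± 0.998 CPM. Adamts9 fell by 1.504 and Adamts1 by 0.97, and Adam12 rose by 0.85. The shedding enzyme Adam17 had a log2 fold change of -0.14 (edgeR adjusted p = 0.012), which was lost on FPKM (adjusted p = 0.079 and 0.08). Adam10, a RECK target, had a log2 fold change of -0.06 and did not pass (edgeR adjusted p = 0.13).

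The partners through which these inhibitors act or are cleared moved both ways. Of 10 tested, 6 were higher and 4 lower (median 0.20), beside 29.0% and 29.9% of all tested genes. For TIMP1, the receptor Cd63 rose by 0.23 on the log2 scale (649 ± 12.5 to 762 ± 9.51 CPM). For TIMP2, the integrin subunit Itga3 fell by 1.07, while its partner subunit Itgb1 rose by 0.19 (1955 ± 34.4 to 2234 ± 46.8 CPM). For TIMP3, the receptor Kdr, which it blocks, rose by 0.79 at a low level (6.50 ± 0.783 to 11.3 ± 1.39 CPM) and the matrix protein Efemp1, which binds it, fell by 0.47. For RECK, its co-receptor partner Adgra2 fell by 0.77 on the log2 scale (26.8 ± 1.13 to 15.8 ± 0.610 CPM) and the ligand Wnt7a rose by 1.08 (10.3 ± 2.72 to 21.8 ± 4.16 CPM). Lrp1, the endocytic receptor that clears TIMPs, rose by 0.20, and Cd44, a docking protein for several MMPs, by 1.44. Of the 8 other inhibitors and related proteins, 6 were tested, with 2 higher, 1 lower and 3 not past the test: the protease inhibitor Tfpi2 rose by 0.90, Pcolce2 rose by 0.43 and Pcolce, which enhances procollagen cleavage, fell by 0.42.

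**Figure D4:**
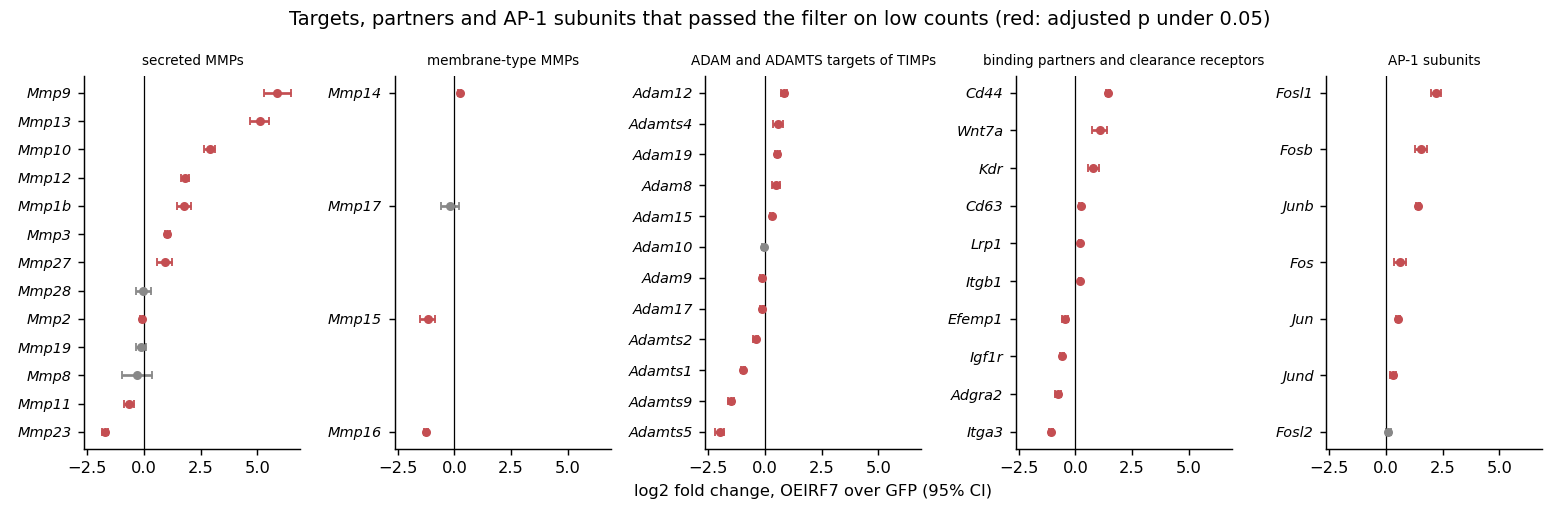
Log2 fold change of OEIRF7 over GFP with 95% CI (x axis) of the tested genes of each list, sorted by size (y axis, gene symbols), in red where the edgeR adjusted p was under 0.05. The secreted MMP list ranges from Mmp9 at 5.88 to Mmp23 at -1.71, and 6 of 7 AP-1 subunits lie above 0 in red.

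AP-1 subunits, which are known to drive TIMP1 transcription, were listed beside the Timp1 window shown above. Of 7 tested, 6 rose and 1 did not pass (median 0.61), where 29.0% of all tested genes were higher. Fosl1 rose by 2.21 on the log2 scale, Fosb by 1.55 (0.90 on log2(FPKM + 1)) and Junb by 1.41, and Jun, at 48.4 ± 3.46 and 69.99 ± 2.07 CPM, rose by 0.53. Fosl2 had a log2 fold change of 0.10 (edgeR adjusted p = 0.11, and 0.039 with library size scaling alone and 0.044 without GFP replicate 3). The libraries carry no measure of binding at the Timp1 window, so no link between them was tested.

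Timp1 moved against most of the other transcripts of the study's qPCR panel. Of the 8 panel genes, 2 rose, 5 fell and 1 did not pass (median -0.15). The panel was chosen by the study and is not independent evidence of a direction. The genes that rose were Timp1 and Lox, a collagen cross-linking enzyme, the latter by 0.11 on the log2 scale. Acta2, the smooth muscle actin of myofibroblasts, fell by 1.83, Col3a1 by 0.53, Postn by 0.38 and Col1a1 by 0.16. Ccn2 had a log2 fold change of -0.14 (edgeR adjusted p = 0.011), lost on FPKM (0.079 and 0.084), and Col1a2 one of -0.05 (edgeR adjusted p = 0.10, and 0.028 without OEIRF7 replicate 4).

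Markers of other cell types had summed levels far below that of the fibroblast markers, and some moved with the groups. The macrophage and endothelial sums were above the level of Reck (111 CPM in GFP and 38.1 in OEIRF7). The macrophage marker Lyz2 alone had 202 CPM in GFP and 235 CPM in OEIRF7. The summed macrophage markers (8 genes, all tested, 4 higher and 1 lower) had 283 to 335 CPM in GFP and 354 to 394 CPM in OEIRF7, and the 6 mural cell markers 68.9 to 76.0 and 79.0 to 98.8 CPM. Of the 5 mural markers tested, 2 rose (Cspg4 from 22.4 ± 1.84 to 63.3 ± 7.18 CPM) and 2 fell (Notch3 by 1.61 and Myh11 by 0.98 on the log2 scale), so the sum is carried by Cspg4. The 6 epicardial markers had 93.3 to 107 and 80.0 to 88.9 CPM, a lower sum carried by Upk3b (51.8 ± 7.24 to 20.8 ± 2.45 CPM), while 3 of the 6 rose, Krt19 by 1.96 on the log2 scale, and the median was 0.21. The 8 endothelial markers had 229 to 241 and 233 to 260 CPM, with 3 higher, 1 lower and 4 not past the test. The 9 cardiomyocyte markers summed to 9.95 to 13.7 and 7.66 to 9.92 CPM, nearly all of it Tnnt2, and the 6 adipocyte markers to 11.7 to 14.4 and 15.8 to 16.3 CPM, with Cidec and Lep without a count. Within the fibroblast list, 2 of 10 rose and 5 fell, and Tcf21, a transcription factor of resident cardiac fibroblasts, fell by 1.33 on the log2 scale. The part of these differences in those of Timp1, Timp3 and Reck was not tested.

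By position, 3 TIMP genes lie within synapsin genes on the opposite strand, and the strand setting of the counting is not stated. Timp1 lies inside Syn1 but shares no exon base with it. Syn1 had 96 to 163 counts in GFP and 308 to 374 in OEIRF7, a log2 fold change of 1.38, and these were 0.629 to 1.18% and 1.33 to 1.86% of the counts of Timp1. Timp3 shares 1733 of its 8144 exon bases (21.3%) with Syn3, which had only 3 to 7 counts in GFP and 8 to 14 in OEIRF7. Timp4 lies inside Syn2, with 90 shared exon bases, and Syn2 had a log2 fold change of -0.49, from 22.1 ± 0.757 to 15.7 ± 1.33 CPM. Cep295nl, within Timp2 on the same strand, rose by 0.71 and had 0.684 to 0.881% and 1.10 to 1.37% of the counts of Timp2. How reads in the stretches shared by Timp3 and Syn3, or by Timp4 and Syn2, were assigned is not stated, so these counts are uncertain there.

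**Figure D5:**
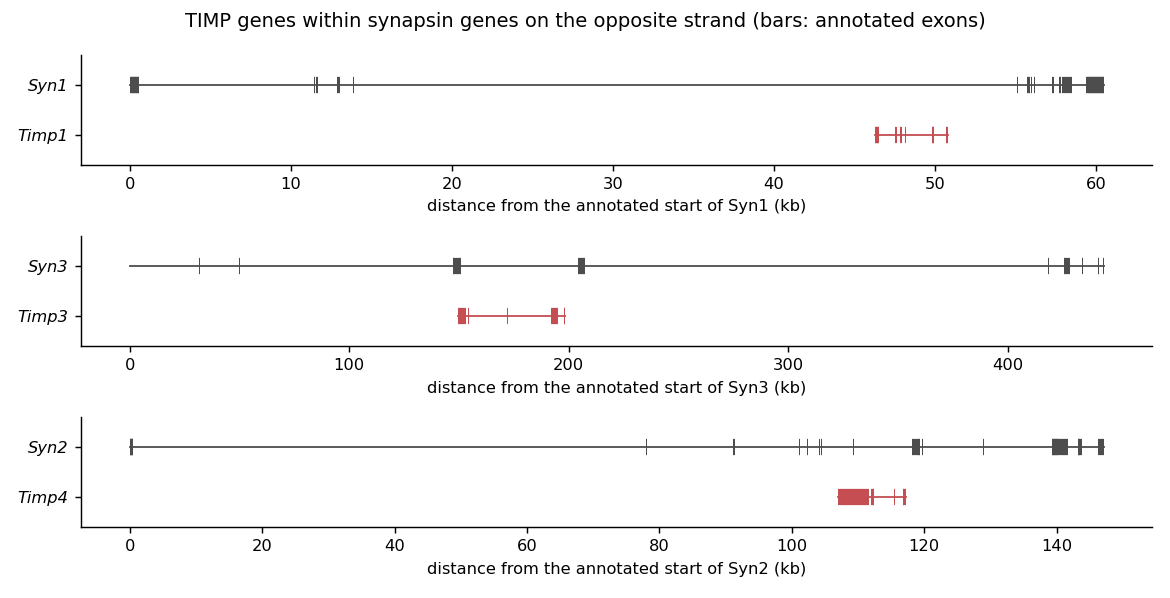
Annotated exons (bars) of Timp1, Timp3 and Timp4 and of the synapsin gene around each, by distance in kb from the start of the synapsin gene (x axis). Exons of Timp1 lie between those of Syn1, whereas Timp3 and Syn3 share 1733 exon bases and Timp4 and Syn2 share 90.

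As a description, the genes whose log2 CPM over the 8 libraries ran most nearly parallel to each member were found among the 10319 genes above 5 CPM. For Reck these were Plekha7, Tmem64 and 2310022B05Rik, each with Pearson's r of 0.999, and 1457 genes exceeded 0.95. For Timp1 they were P2ry2 (0.993), Tspo (0.991) and Commd6 (0.990), with 361 genes past 0.95, and for Timp3 Asap3 (0.992), Odf2 (0.987) and Lsp1 (0.985), with 197. The closest to Timp2 were Lif (0.947), Paox (0.944) and C3ar1 (0.937), and 0 genes exceeded 0.95. With the group means taken out, r was 0.873 to 0.967 for the 3 genes beside Reck, 0.910 to 0.953 for those beside Timp1, 0.932 to 0.960 for those beside Timp3 and 0.939 to 0.959 for those beside Timp2. All these genes were picked for a high r, over libraries that share their depth and composition between genes.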

How the data were processed

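RNA-seq libraries of TGF-β-treated mouse cardiac fibroblasts were analysed, 4 labelled GFP and 4 labelled OEIRF7. Per the paper, the authors trimmed reads with Trimmomatic, aligned them with HISAT2 to GRCm38 and counted reads per gene with HTSeq-count; versions and the strand setting of the counting are not given in the sources used here. The labels and the paper name different extraction and library kits. The authors deposited raw counts per gene and FPKM from Cufflinks (normalized for length and depth). The deposited columns of the authors' own comparison (mean FPKM, log2 ratio, p-value and FDR) were not used. In 121 symbols the letters nc had been replaced by GFP, and these were restored by identifier. Of 22274 identifiers, 22219 were found in GENCODE M21, the source of positions, and 3816 genes had no count.

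Counts were analysed with edgeR 4.0.16 in R 4.3.3: filterByExpr by group (13533 genes), TMM scaling (factors 0.989 to 1.01), glmQLFit and glmQLFTest without covariates, and Benjamini-Hochberg adjustment over all tested genes, with calls at an adjusted p under 0.05. The fit was tested on simulated data. CPM use TMM-scaled library sizes, log2 CPM a prior count of 2. Exact two-sided permutation tests used scipy 1.17.1. The alternatives were DESeq2 1.42.0, other scalings and filters, limma 3.58.1 on log2(FPKM + 1) and log2(FPKM + 0.1), a replicate block and leaving out each library. Replicate numbers are shared by the groups, but the correlation of the deviations of same-numbered libraries was 0.0792 to 0.138, not above 0.1 for all, so they were not taken as pairs. That line of 0.1 is arbitrary, and libraries of different numbers reached at most 0.0476. The replicate block lowered the SE of all 4 tested members, that of Timp3 from 0.054 to 0.032. A shared effect of the replicate number is thus not modelled in the main and permutation tests. The paper states 3 biological replicates, and all 4 libraries of each group were used. Libraries of a group differed by more than sampling noise.

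The genes named were the 5 members, Irf7, overlapping genes, the qPCR panel, set targets and partners, and up to 5 called genes of each list with the largest change above 1 CPM. Mmp3, Mmp11, Mmp23, Efemp1, Itgb1 and Fosl2 fall outside that rule and were named after their values were seen. The members and lists were chosen with earlier results of these data known. Sequences are from RefSeq.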

Additional observations from a re-analysis of the deposited data

Results flagged for a closer look

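Of 180 groups of 4 libraries examined (members, listed genes and sums), 7 held a library whose gap to the nearest of the others, divided by the range of the group, was above Dixon's critical value for 4 samples, and chance flags about 1 in 20. None was a TIMP or Reck value. OEIRF7 replicate 3 still held the lowest OEIRF7 value of Timp2, Timp3 and Reck. Without it the log2 fold change was -0.30 for Timp3 and -1.50 for Reck, the smallest falls when leaving out 1 library. In OEIRF7 replicate 3, Mmp14 was low at 488 CPM (523 to 526 in the others), and with it the summed FPKM of membrane-type MMPs at 201 (218 to 219 in the others). In OEIRF7 replicate 4, Adam17 was low at 62.6 CPM and Lrp1 high at 4157 CPM. In OEIRF7 replicate 2, Cd44 was high at 732 CPM and Syn3 at 0.483 CPM, the latter from 14 counts. In GFP replicate 1, Msln was low at 7.20 CPM.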

How the results depend on the processing

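For the 4 tested members, 59 of 64 values under other settings kept their direction and side of the threshold, and these include every value of Timp1, Timp3 and Reck. The 5 others were Timp2, which changed sign without passing the threshold: 0.019 with library size scaling alone, 0.11 on log2(FPKM + 1) and 0.11 on log2(FPKM + 0.1), 0.006 without GFP replicate 2 and 0.022 without OEIRF7 replicate 3. The cause was not tested. Leaving out 1 library gave 0.49 to 0.58 for Timp1, -0.027 to 0.022 for Timp2, -0.39 to -0.30 for Timp3 and -1.58 to -1.50 for Reck. With a replicate block, the log2 fold changes were 0.53, -0.01, -0.35 and -1.55, and no call of a member changed, while Fosl2 gained its call (adjusted p = 0.011) and Msln lost it (0.069); every GFP library correlated best with the OEIRF7 library of its own number, a hint from the data and not from the design. With all genes that had any count, Timp4 had a log2 fold change of -0.47 (SE 0.69, edgeR adjusted p = 0.61). Over all genes, the 631 past a log2 fold change of 1 became 408 with at least 10 counts in every library, which tests fewer genes, and 264 with limma on log2(FPKM + 1), where the 527 past -1 became 171. With limma and the smaller pseudocount of 0.1 they were 632 and 417. The higher count was then no longer reduced, while the lower count stayed under 527, and the cause of that rest was not tested. All 54 values of the pair differences were unchanged in direction, although 3 against 4 libraries cannot pass the threshold in the exact test. Of 1135 values for 71 other genes, 1084 kept their call, 47 lost it and 4 gained it. Values of Timp4 and of genes below about 1 CPM are limited by depth.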
